A study of Danio rerio with 16 samples.

Results

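The 42 Hox genes of paralogue groups 1 to 12 were followed through the cells of the zebrafish tail, in embryos with BMP, FGF or Wnt signalling inhibited and in wild type. They are every gene of the 21301 in the count matrix whose symbol reads hox, then a cluster letter from a to d, a group number from 1 to 12 and a copy letter. The rule reads only the symbol, but it was set with earlier results of these data known. They lie in 7 clusters, with 5 members in hoxaa, 4 in hoxab, 10 in hoxba, 4 in hoxbb, 10 in hoxca, 3 in hoxcb and 6 in hoxda. Groups 1 to 12 held 4, 2, 4, 3, 4, 4, 1, 3, 5, 4, 5 and 3 members. The gene hoxa4a, which RefSeq lists, was not analysed here.

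Hox genes encode homeodomain transcription factors that give cells their position along the head-to-tail axis. Genes at the 3′ end of a cluster carry low group numbers and are turned on earlier and further forward, and those at the 5′ end carry high numbers and are turned on later and further back, an order called collinearity. Low-numbered groups are best known for the hindbrain and the pharyngeal arches, middle groups for the trunk, and groups from 9 upward, related to the fruit fly gene Abdominal-B, for the posterior trunk and the tail. The paired copies a and b of many zebrafish genes go back to a genome duplication in the ancestors of the teleosts, the fish group that includes zebrafish. In the tailbud, FGF and Wnt signals and the Cdx factors are known activators of posterior Hox genes, retinoic acid acts on the anterior ones, and Pbx and Meis proteins bind DNA together with Hox proteins.

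Transcripts were counted by droplet sequencing of transcript 3′ ends in 130661 cells of dissociated tails, cut behind the youngest somite at the 10 to 12 somite stage. The groups were DMH1 (a BMP receptor kinase inhibitor; 31485 cells), SU5402 (an FGF receptor kinase inhibitor; 33722 cells), notum-1 (Wnt inhibition; Notum cuts from Wnt ligands a lipid that they need to bind their receptors; 30822 cells) and untreated wild type, WT (34632 cells). Each group had 4 libraries, and a library pooled 10 tails, with 12 in the case of notum-1. Neither the strain, the dose and duration of the inhibitors nor the way in which notum-1 was delivered is given in the sources used here, and no vehicle-treated library was analysed here. A library held 12398958 to 76488460 unique molecular identifiers (UMIs, which mark single captured transcripts), with a median of 2424 to 9972 per cell, and 42071 to 304794 of these UMIs fell on the Hox members. Library names are those of the authors' cell table: DMH0, DMH2, DMH3 and DMH4 for DMH1, SU1 to SU4 for SU5402, WNT_MG1, WNT_MG2, WNT_DJ1 and WNT_DJ2 for notum-1, and MG1, MG2, DJ1 and DJ2 for WT. Values by library are given in this order.

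Some libraries stood apart from others of their group. In notum-1, WNT_MG2 and WNT_DJ2 lay below WNT_MG1 and WNT_DJ1 for the posterior gene hoxd12a, with 44.03 and 57.95 CPM (UMIs scaled to a fixed library total) against 107 and 141 CPM, and above them for hoxb1b, with 88.8 and 62.9 against 39.5 and 31.3 CPM. In DMH1, DMH0 and DMH2 lay below DMH3 and DMH4 for the sum of group 11, with 199 and 199 CPM against 264 and 274 CPM. For the sum of group 12 they had 103 and 109 CPM against 155 and 161 CPM. In SU5402, SU1 and SU2 were the shallowest libraries of the study, with 12398958 and 23542233 UMIs. The authors' cell filters also differed: the highest mitochondrial percent of a kept cell was 6.96 to 6.999 under DMH1, 6.99 to 9.99 under SU5402, 2.98 to 2.998 under notum-1 and 4.53 to 4.998 in WT. The fewest genes in a kept cell were 1001 to 1016 under DMH1 and 501 to 503 under notum-1. They were 801 in SU1 to SU3 and 1501 in SU4, and in WT 801 to 802 in MG2, DJ1 and DJ2 and 1202 in MG1. No pair of libraries shared more than 0.514% of the cell barcodes of the smaller one. The RefSeq models of 17 members overlap another Hox gene (hoxa3a, hoxa5a, hoxb1b, hoxb3a, hoxb4a, hoxb5a, hoxb5b, hoxb6a, hoxb6b, hoxc3a, hoxc4a, hoxc5a, hoxc6a, hoxc8a, hoxc9a, hoxd3a and hoxd4a), and since the counting of shared reads is not given in the sources used here, their values are uncertain.

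In WT, UMIs of the members were found in every cell class, and groups 9 to 12 took the largest block of Hox UMIs in 21 of 21 classes. These are the classes of the authors' annotation with at least 30 cells in each WT library. For anterior notochord that lead is uncertain, since many members of groups 9 to 12 lay there at or below the marker floor given below. Each level is given as CPM of the class total (counts of transcript ends do not scale with transcript length), mean ± SD over the 4 WT libraries. Intermediate mesoderm, the tissue that forms kidney, had the highest summed level, 6636 ± 409.8 CPM, apart from the next class, hand2 lateral plate mesoderm, at 5662 ± 277 CPM. Anterior notochord was lowest at 2374 ± 178 CPM. Within the order of the 21 classes by that sum, 1 of 20 neighbouring pairs did not overlap between libraries.

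**Figure D1:**
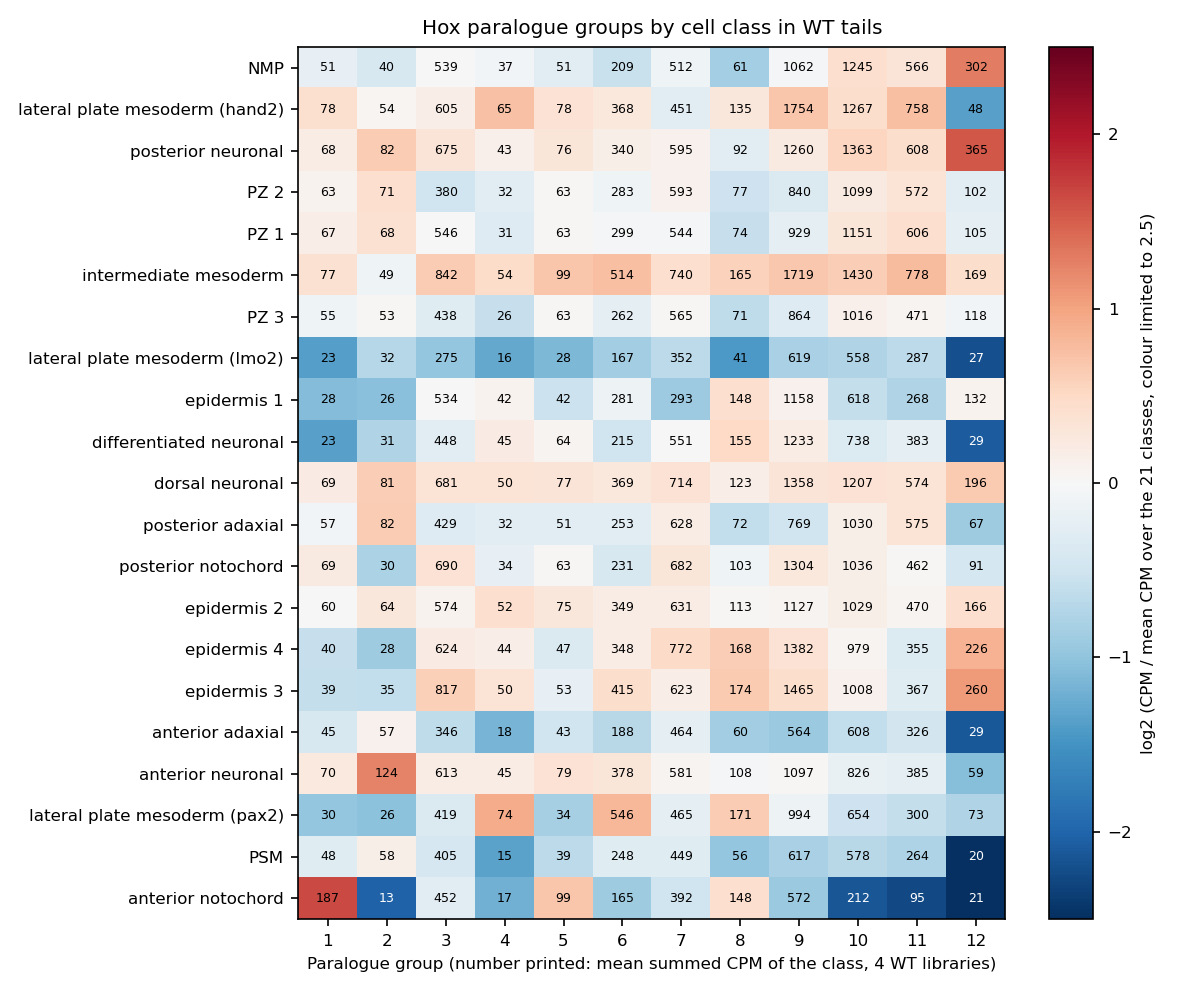
Summed level of each paralogue group (columns) in each of 21 WT cell classes (rows). The printed number is the mean CPM over 4 WT libraries, and the colour is the log2 ratio to the mean of that group over the 21 classes, limited to 2.5. Anterior notochord stands out for group 1 (187 CPM) and low levels of groups 10 and 11 (212 and 94.6 CPM), posterior neuronal and NMP cells for group 12 (365 and 302.5 CPM), and PSM for the lowest group 12 level (20.1 CPM).

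The classes were compared as a description, with no test between them. The class names were checked against markers, and most stood where their name puts them. For PSM, taken as presomitic mesoderm, tbx6 was at rank 2 of the classes but msgn1 at rank 8 and tbx16 at rank 10, and intermediate mesoderm had less lhx1a than all cells together (3.76 against 9.51 CPM). What PZ and NMP stand for is not given in the labels. Free RNA in droplets can set a floor for these levels, and markers of other cell types were taken to gauge it. In WT the epidermis markers tp63, krt4 and epcam together stood at 33.7% to 38.95% of their all-cell level in posterior neuronal, PZ 1, NMP and PSM cells. The mesoderm markers msgn1, tbx16 and tbx6 stood at 27.1% in epidermis 1. Whether free RNA was the source of these markers was not tested. A Hox level at or below the share of the summed markers was read as background. Single markers gave different floors: in PSM tp63 stood at 15.7%, epcam at 19.15% and krt4 at 42.4%. There krt4 held 331 of the 370 CPM of the sum. In epidermis 1 msgn1 stood at 24.45%, tbx16 at 28.2% and tbx6 at 54.99%, so the reading depends on the markers chosen.

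Groups 1 and 2 had opposite extremes. Group 1 was highest in anterior notochord at 187 ± 35.2 CPM, with hand2 lateral plate mesoderm next at 78.3 ± 18.6 CPM and no overlap between their libraries. Its member hoxc1a stood at 107 ± 15.3 CPM in anterior notochord and 13.8 ± 1.53 CPM in posterior notochord, with libraries from 88.99 to 123 CPM and from 12.3 to 15.7 CPM. In epidermis 1, the lowest class, it stood at 1.60 ± 0.670 CPM, which is at background. The gene hoxb1b, best known for early hindbrain patterning, was also highest in anterior notochord at 80.6 ± 25.1 CPM, and intermediate mesoderm overlapped it at 72.6 ± 2.77 CPM. Group 2 was highest in anterior neuronal cells at 124 ± 11.3 CPM and lowest in anterior notochord at 12.99 ± 3.89 CPM. Its member hoxa2b, which sets the identity of the hyoid arch, had 109 ± 12.5 CPM in anterior neuronal cells, 74.7 ± 6.04 CPM in posterior adaxial cells and 7.70 ± 2.29 CPM in anterior notochord. The first of these levels did not overlap the second. The other member, hoxb2a, was spread more evenly, from 5.30 ± 2.67 CPM in anterior notochord to 17.6 ± 1.85 CPM in intermediate mesoderm.

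The middle groups were led by mesoderm and epidermis classes. Group 3 had 842 ± 21.3 CPM in intermediate mesoderm and 817 ± 37.1 CPM in epidermis 3, which overlapped, and 275 ± 24.7 CPM in lmo2 lateral plate mesoderm, the lowest class. Of its members, hoxb3a was apart in intermediate mesoderm at 169 ± 15.9 CPM, above posterior neuronal cells at 122 ± 15.3 CPM, while hoxc3a led in epidermis 3 (639 ± 32.8 CPM), hoxd3a in dorsal neuronal cells (80.3 ± 9.50 CPM) and hoxa3a in anterior neuronal cells (29.7 ± 3.36 CPM). In group 5, hoxb5a was apart in intermediate mesoderm at 59.6 ± 7.69 CPM, and hoxc5a in anterior notochord at 64.1 ± 7.59 CPM, above differentiated neuronal cells at 20.5 ± 6.91 CPM. The gene hoxb6a stood at 225 ± 20.9 CPM in pax2 lateral plate mesoderm, above intermediate mesoderm at 108 ± 20.1 CPM, with no overlap. The only group 7 member, hoxb7a, ranged from 293 ± 90.6 CPM in epidermis 1 to 772 ± 63.2 CPM in epidermis 4. In group 8, hoxc8a led in epidermis 3 (116 ± 15.2 CPM), hoxb8a in pax2 lateral plate mesoderm (101 ± 23.8 CPM) and hoxb8b in anterior adaxial cells (6.57 ± 2.10 CPM), each overlapping the class next to it.

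The posterior groups, whose genes shape the hind trunk and the tail, were led by intermediate and lateral plate mesoderm and by posterior neuronal cells. Epidermis classes were high too: group 9 had 1465 ± 76.2 CPM in epidermis 3 and 1382 ± 79.3 CPM in epidermis 4. In posterior neuronal cells it had 1260 ± 83.9 CPM. Group 9 had 1754 ± 35.3 CPM in hand2 lateral plate mesoderm and 1719 ± 92.9 CPM in intermediate mesoderm, which overlapped, and 564 ± 28.2 CPM in anterior adaxial cells, the lowest class. Its member hoxd9a, known like other hoxda genes from the developing fins, had 777 ± 51.5 CPM in hand2 lateral plate mesoderm. Group 10 led in intermediate mesoderm (1430.0 ± 177 CPM) and posterior neuronal cells (1363 ± 109.5 CPM), and its member hoxd10a had 589 ± 36.8 CPM in posterior neuronal cells, 512 ± 51.4 CPM in posterior notochord and 82.7 ± 15.5 CPM in anterior notochord. The last of these is 24.4 ± 5.04% of the gene's all-cell level and is at background. Group 11 ran from 94.6 ± 17.3 CPM in anterior notochord to 779 ± 36.00 CPM in intermediate mesoderm, where hoxd11a, at 275 ± 41.01 CPM, was apart from posterior neuronal cells at 205 ± 5.90 CPM. Group 12 was nearly all hoxd12a, a gene known from fin and limb development. It had 364 ± 31.3 CPM in posterior neuronal cells and 302 ± 34.9 CPM in NMP, which overlapped, and 196 ± 46.1 CPM in dorsal neuronal cells. The group 12 sum was 260 ± 22.5 CPM in epidermis 3 and 226 ± 18.5 CPM in epidermis 4, above the mean of dorsal neuronal cells. In PSM hoxd12a had 20.1 ± 2.75 CPM, 13.9 ± 2.56% of its all-cell level, which is at background.

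Over the 35 members with at least 5 CPM in some class, 11 were highest in intermediate mesoderm, 5 in hand2 and 4 in pax2 lateral plate mesoderm, 3 each in anterior neuronal cells and anterior notochord, 2 each in posterior neuronal cells, dorsal neuronal cells and epidermis 3, and 1 each in NMP, anterior adaxial cells and epidermis 4. The single member led by NMP was hoxa11a, at 23.97 ± 3.37 CPM, which overlapped PZ 1. In 7 of the 35 the leading class did not overlap the next one. The anterior notochord held the lowest level for 16 of the 35, among them 11 of the 15 members of groups 9 to 12. Of those 16, 11 stood at or below 33.96% of their all-cell level, where the epidermis markers stood in that class, and were read as background (hoxa2b, hoxb8b, hoxa9a, hoxa9b, hoxa10b, hoxb10a, hoxd10a, hoxa11a, hoxa11b, hoxc11a and hoxd11a). Only the sum of the markers was used for that class, so this reading also depends on the markers chosen. Groups 9 to 12 made up 37.8 ± 2.03% of Hox UMIs there, 52.9 ± 0.975% in PSM and 67.9 ± 0.800% in NMP, the highest share. The share in hand2 lateral plate mesoderm was close to that in NMP, at 67.6%.

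With the UMIs of all cells of a library summed, more Hox genes were lower than higher in each treatment, except that without scaling the DMH1 counts were equal, at 11 and 11. SU5402 gave the most one-sided result, with 25 of 40 members lower and 1 higher than in WT. DMH1 had 16 lower and 6 higher, and notum-1 had 19 lower and 3 higher. Genes were called at an adjusted p under 0.05 (edgeR quasi-likelihood F test, Benjamini-Hochberg adjustment over 16399 genes, 4 libraries against 4). Beside these counts, 20.3% of all genes tested were lower and 22.1% higher under DMH1, 19.6% lower and 23.0% higher under SU5402, and 17.1% lower and 20.9% higher under notum-1. The median log2 fold change of the members was -0.15 under DMH1, -0.68 under SU5402 and -0.31 under notum-1, where all genes had medians of 0.06, 0.11 and 0.03. In each treatment the share of members lower exceeded that of all genes, and the share of members higher stayed under it. The 3 comparisons share the WT libraries and are not independent of each other. In sums over all cells, a change in the shares of cell classes and a change in level per cell cannot be told apart.

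Scaling shifted the split. Without scaling beyond the library total, the medians of all genes became 0.20, 0.34 and -0.37, and the members called were 11 higher and 11 lower under DMH1, 2 and 18 under SU5402, and 1 and 26 under notum-1. Of the 16399 genes tested, 4655 were then higher and 2323 lower under DMH1, 5269 and 2006 under SU5402, and 1418 and 6113 under notum-1. The share of members higher under DMH1 then lay near that of all genes. Without the 17 members whose gene models overlap, 3 of 23 were higher and 11 lower under DMH1, none higher and 17 lower under SU5402, and 1 higher and 15 lower under notum-1. The count of members higher in DMH1 was 3 without DJ1 and 3 without DMH3, and the count higher in SU5402 was 2 without SU4.

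**Figure D2:**
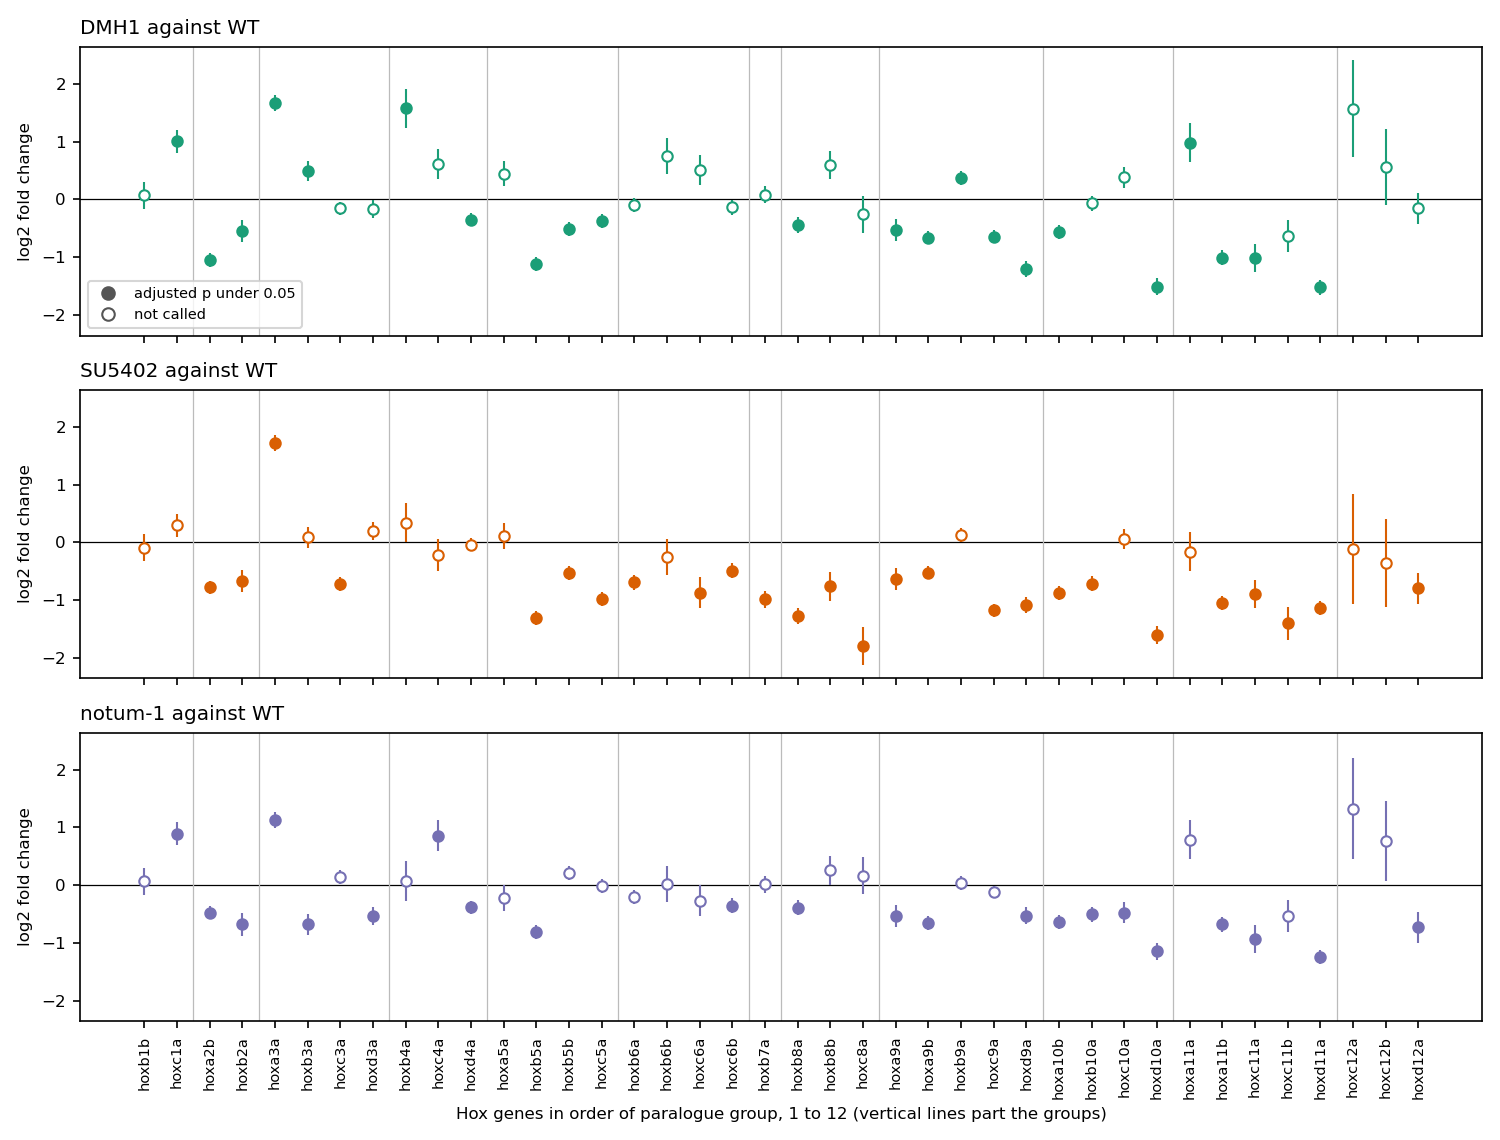
Log2 fold change against WT (TMM-scaled sums over all cells) of the 40 members tested, ordered by paralogue group, in 3 panels for DMH1, SU5402 and notum-1. Filled points passed adjusted p under 0.05, open points did not, and bars are 1 SE; the values run from -1.80 (hoxc8a in SU5402) to 1.72 (hoxa3a in SU5402), and most filled points of groups 9 to 12 lie below 0.

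The calls were then counted by block of groups, from the 3′ to the 5′ side of the clusters. Of the 11 members tested in groups 1 to 4, there were 4 higher and 3 lower under DMH1, 1 higher and 3 lower under SU5402 and 3 higher and 5 lower under notum-1. Of the 12 in groups 5 to 8, there were 0 higher and 4 lower under DMH1, 0 higher and 10 lower under SU5402 and 0 higher and 3 lower under notum-1. Of the 17 in groups 9 to 12, there were 2 higher and 9 lower under DMH1, 0 higher and 12 lower under SU5402 and 0 higher and 11 lower under notum-1. In groups 5 to 8 the median log2 fold change was -0.12 under DMH1, -0.82 under SU5402 and -0.11 under notum-1. The medians of groups 9 to 12 were -0.56, -0.79 and -0.53 in DMH1, SU5402 and notum-1, and those of groups 1 to 4 were 0.07, -0.04 and 0.07. Of the members tested in groups 1 to 4, only hoxa2b, hoxb2a and hoxc1a have models free of overlap. The first 2 lay at -1.04 to -0.55 under DMH1, -0.78 to -0.67 under SU5402 and -0.68 to -0.48 under notum-1. The third, hoxc1a, lay at 1.01, 0.29 and 0.89. In groups 9 to 12 only hoxc9a has an overlapping model, so the block medians rest unequally on uncertain values. Differences between the blocks were not tested. By cluster, 4 of 4 hoxab members were lower under DMH1, 4 of 4 under SU5402 and 4 of 4 under notum-1, and of the 6 in hoxda 4 were lower under DMH1, 4 under SU5402 and 6 under notum-1. In hoxba 3 of 9 were higher and 3 lower under DMH1, 6 were lower under SU5402 and 5 under notum-1, and in hoxbb 1 of 4 was lower under DMH1, 2 under SU5402 and none under notum-1.

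**Figure D3:**
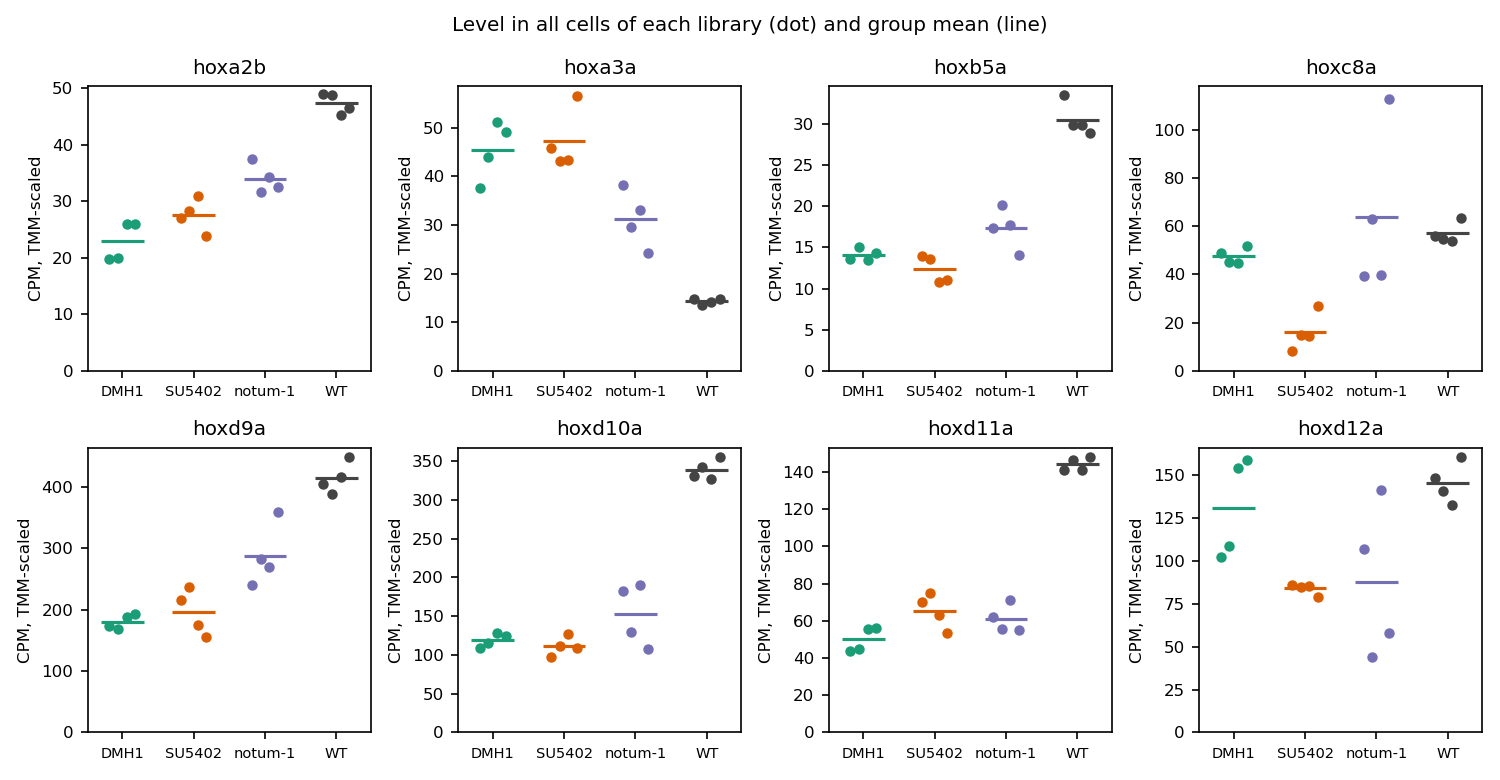
Level of hoxa2b, hoxa3a, hoxb5a, hoxc8a, hoxd9a, hoxd10a, hoxd11a and hoxd12a (CPM, TMM-scaled, sums over all cells) in the 4 libraries of DMH1, SU5402, notum-1 and WT. They are a selection of the members whose library values are given in the text. Dots are libraries and lines are group means; for hoxd10a and hoxd11a every treated library lies below the 4 WT libraries, and for hoxa3a every treated library lies above them.

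Among groups 1 to 4, the hindbrain genes of group 2 fell and hoxa3a rose. The gene hoxa2b had 19.8, 20.03, 26.00 and 25.9 CPM under DMH1, 27.1, 28.3, 30.9 and 23.8 under SU5402 and 37.4, 31.7, 34.4 and 32.5 under notum-1, against 48.9, 48.7, 45.2 and 46.4 in WT. For hoxa2b the log2 fold change against WT, ± SE here and below, was -1.04 ± 0.12 (adjusted p = 6.28e-06) under DMH1, -0.78 ± 0.12 (adjusted p = 6.24e-05) under SU5402 and -0.48 ± 0.11 (adjusted p = 0.00463) under notum-1. No treated library reached the WT range. Its partner hoxb2a, which acts in hindbrain segments, was lower in each comparison, with -0.55 (adjusted p = 0.0324) under DMH1, -0.67 (adjusted p = 0.0117) under SU5402 and -0.68 (adjusted p = 0.0132) under notum-1. The call of hoxb2a in DMH1 was lost without MG1, MG2, DJ2, DMH0, DMH2 or DMH4 (log2 fold change -0.55 to -0.50, adjusted p 0.0611 to 0.0828). Summed over group 2, the level was 30.1 ± 3.90 CPM under DMH1, 34.1 ± 3.33 under SU5402 and 40.5 ± 2.55 under notum-1, against 57.8 ± 1.92 in WT (SD, n = 4).

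The largest rise with a level of at least 5 CPM was that of hoxa3a, a group 3 gene whose mouse counterpart patterns the pharyngeal organs. It had 37.6, 43.95, 51.2 and 49.1 CPM under DMH1, 45.9, 43.1, 43.3 and 56.4 under SU5402 and 38.2, 29.6, 33.1 and 24.2 under notum-1, against 14.7, 13.6, 14.2 and 14.8 in WT. For hoxa3a the log2 fold change was 1.67 ± 0.14 (adjusted p = 6.34e-07) under DMH1, 1.72 ± 0.14 (adjusted p = 3.83e-07) under SU5402 and 1.13 ± 0.14 (adjusted p = 3.52e-05) under notum-1. Every treated library lay above the 4 WT libraries. Its model overlaps those of hoxa4a and hoxa5a, so reads of these genes may be counted in it. The neighbour in group 3, hoxb3a, had 112, 122, 156 and 128 CPM under DMH1, 124, 113, 80.2 and 74.1 under SU5402 and 61.99, 71.5, 55.9 and 40.4 under notum-1, against 95.1, 85.4, 97.1 and 90.9 in WT. For hoxb3a the log2 fold change was 0.49 ± 0.18 (adjusted p = 0.0365) under DMH1, 0.09 ± 0.18 (adjusted p = 0.72) under SU5402 and -0.68 ± 0.18 (adjusted p = 0.00788) under notum-1. It was higher in DMH1 and lower in notum-1, in each case without overlap with WT, while SU5402 overlapped WT. The DMH1 call of hoxb3a was lost without MG1, MG2, DJ1, DJ2, DMH2, DMH3 or DMH4 (log2 fold change 0.39 to 0.52, adjusted p 0.0502 to 0.12). A further group 3 member, hoxc3a, was lower in SU5402 at -0.73 (adjusted p = 0.000174), and hoxd3a was lower in notum-1 at -0.53 (adjusted p = 0.0145), or -0.47 (adjusted p = 0.0728) without WNT_MG2 and WNT_DJ2.

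The group 1 gene hoxc1a, the member with the anterior notochord peak in WT, had 12.3, 11.4, 12.5 and 11.7 CPM under DMH1, 8.65, 6.09, 5.41 and 9.08 under SU5402 and 11.1, 16.2, 8.94 and 7.98 under notum-1, against 5.61, 6.62, 6.03 and 5.59 in WT. For hoxc1a the log2 fold change was 1.01 ± 0.20 (adjusted p = 0.000934) under DMH1, 0.29 ± 0.20 (adjusted p = 0.262) under SU5402 and 0.89 ± 0.20 (adjusted p = 0.00323) under notum-1. The DMH1 and notum-1 libraries all lay above WT. Within the 5 single classes tested below, hoxc1a was called higher in 4 under DMH1 but in 0 under notum-1 (log2 fold changes -0.45 to 0.67). With cells held to a common filter (at least 1500 genes and at most 3% mitochondrial UMIs) its change over all cells was 0.20 (adjusted p = 0.659) in DMH1 and 0.78 (adjusted p = 0.0784) in notum-1. The other member tested in group 1, hoxb1b, was not called, with 55.7 ± 2.71 CPM under DMH1, 49.8 ± 8.18 under SU5402 and 55.6 ± 25.9 under notum-1, against 53.1 ± 3.80 in WT (SD, n = 4). In notum-1 WNT_MG2 and WNT_DJ2 were high, and without them hoxb1b was lower at -0.63 (adjusted p = 0.00694). In group 4, hoxd4a was lower in DMH1 at -0.35 (adjusted p = 0.0181) and in notum-1 at -0.39 (adjusted p = 0.0127). Both calls of hoxd4a were lost without single libraries, in DMH1 without DJ2 or DMH0 (log2 fold change -0.32 to -0.27, adjusted p 0.0566 to 0.0746) and in notum-1 without DJ2 (log2 fold change -0.31, adjusted p 0.0532). The scarce hoxb4a rose in DMH1, to 2.10 ± 0.388 CPM, against 0.704 ± 0.142 CPM in WT, or 1.57 (adjusted p = 0.00147) on the log2 scale. The similarly scarce hoxc4a was higher in notum-1 at 0.85 (adjusted p = 0.0198), a call lost without MG1, DJ2, WNT_MG2 or WNT_DJ2 (log2 fold change 0.64 to 0.82, adjusted p 0.0531 to 0.058).

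The untested members hoxa1a and hoxb1a had 46 and 102 UMIs in all 16 libraries together. For hoxb1a, known for the identity of a hindbrain segment that makes facial motor neurons, 20 UMIs lay in WNT_MG2 and 29 in WNT_DJ2 (0.731 and 0.756 CPM), 33 in SU4 (0.423 CPM) and 10 in DMH0, with 4 or fewer in each other library. The 4 WT libraries had 0, which allows levels of up to 0.0576 to 0.115 CPM at 3 UMIs per library, counting error only.

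In groups 5 to 8 most calls came with SU5402. The group 5 gene hoxb5a, which with hoxb4a and hoxb5b places the pectoral fins in zebrafish, had 13.6, 15.02, 13.5 and 14.3 CPM under DMH1, 13.9, 13.6, 10.7 and 11.04 under SU5402 and 17.3, 20.2, 17.8 and 14.1 under notum-1, against 33.5, 29.9, 29.9 and 28.9 in WT. For hoxb5a the log2 fold change was -1.12 ± 0.12 (adjusted p = 5.92e-06) under DMH1, -1.31 ± 0.12 (adjusted p = 1.25e-06) under SU5402 and -0.82 ± 0.12 (adjusted p = 0.000146) under notum-1. No treated library reached the WT range. Its copy hoxb5b had 10.6, 11.3, 10.5 and 9.27 CPM under DMH1, 9.60, 9.89, 10.4 and 11.1 under SU5402 and 16.03, 20.9, 14.7 and 16.9 under notum-1, against 14.04, 14.5, 14.5 and 16.4 in WT. For hoxb5b the log2 fold change was -0.51 ± 0.12 (adjusted p = 0.0026) under DMH1, -0.53 ± 0.12 (adjusted p = 0.00189) under SU5402 and 0.21 ± 0.12 (adjusted p = 0.176) under notum-1, and it was not called in notum-1, where it overlapped WT. With the common cell filter hoxb5b in SU5402 was -0.45 (adjusted p = 0.14). The hoxca member of the group, hoxc5a, had 10.5, 11.7, 9.62 and 9.53 CPM under DMH1, 6.61, 8.19, 6.40 and 5.97 under SU5402 and 12.7, 14.6, 11.5 and 14.3 under notum-1, against 13.4, 14.2, 13.2 and 12.7 in WT. For hoxc5a the log2 fold change was -0.37 ± 0.12 (adjusted p = 0.0208) under DMH1, -0.98 ± 0.12 (adjusted p = 1.6e-05) under SU5402 and -0.01 ± 0.12 (adjusted p = 0.964) under notum-1. It was lowest in SU5402, and its DMH1 call was lost without MG2, DMH3 or DMH4 (log2 fold change -0.34 to -0.33, adjusted p 0.0574 to 0.0646). Summed over group 5, the level was 36.4 ± 2.18 CPM under DMH1, 30.6 ± 2.01 under SU5402 and 48.7 ± 5.53 under notum-1, against 59.9 ± 1.33 in WT (SD, n = 4), and no library of any treatment reached the WT range. The scarce hoxa5a was not called, with 1.52 ± 0.333 CPM under DMH1, 1.22 ± 0.157 under SU5402 and 0.966 ± 0.210 under notum-1, against 1.12 ± 0.150 in WT.

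In group 6, hoxb6a at -0.70 (adjusted p = 0.000305), hoxc6a at -0.87 (adjusted p = 0.0145) and hoxc6b at -0.49 (adjusted p = 0.00622) were lower in SU5402, while hoxb6b at -0.26 (adjusted p = 0.541) was not called. In notum-1 hoxc6b was lower at -0.36 (adjusted p = 0.0415), a call lost without MG1, MG2, DJ2, WNT_MG1, WNT_MG2 or WNT_DJ1 (log2 fold change -0.38 to -0.28, adjusted p 0.0583 to 0.121). No group 6 member was called in DMH1. The group 7 gene hoxb7a, a trunk gene, had 609, 544, 563 and 583 CPM under DMH1, 246, 254, 307 and 284 under SU5402 and 493, 435, 502 and 761 under notum-1, against 519, 515, 522 and 612 in WT. For hoxb7a the log2 fold change was 0.09 ± 0.15 (adjusted p = 0.664) under DMH1, -0.99 ± 0.15 (adjusted p = 7.09e-05) under SU5402 and 0.02 ± 0.15 (adjusted p = 0.94) under notum-1. The SU5402 libraries all lay below the other 12, and neither DMH1 nor notum-1 was called.

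In SU5402, group 8 had the lowest ratio to WT among the 12 groups, with a mean 0.343 times that of WT. Under DMH1 and notum-1 group 11 was lowest, at 0.499 and 0.584 times WT. Group 8 had summed levels of 79.6 ± 3.20 CPM under DMH1, 33.2 ± 8.46 under SU5402 and 95.6 ± 42.9 under notum-1, against 96.7 ± 5.91 in WT (SD, n = 4). Its member hoxb8a, a trunk spinal cord gene, had 25.97, 26.3, 27.6 and 26.5 CPM under DMH1, 14.6, 15.1, 15.00 and 14.8 under SU5402 and 23.3, 30.2, 20.9 and 36.03 under notum-1, against 36.6, 35.4, 34.4 and 38.2 in WT. For hoxb8a the log2 fold change was -0.44 ± 0.13 (adjusted p = 0.0133) under DMH1, -1.28 ± 0.14 (adjusted p = 3.3e-06) under SU5402 and -0.39 ± 0.13 (adjusted p = 0.0299) under notum-1. Only in notum-1 did the libraries overlap WT, and that call was lost without MG1, MG2, DJ2, WNT_MG1 or WNT_DJ1 (log2 fold change -0.40 to -0.27, adjusted p 0.0513 to 0.095). The largest fall among the members was that of hoxc8a in SU5402, at -1.80 ± 0.33 (adjusted p = 0.00044), with 8.46, 15.1, 14.4 and 27.1 CPM in SU1 to SU4, against 56.1, 54.8, 53.99 and 63.3 CPM in WT. Its model overlaps another Hox gene. The third member, hoxb8b, was lower in SU5402 at -0.76 (adjusted p = 0.0224), a call lost without MG2 or SU2 (log2 fold change -0.73 to -0.69, adjusted p 0.0506 to 0.0512) and without SU1 and SU2 together.

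Group 9 fell in all its members but hoxb9a in DMH1 and SU5402. Summed, it had 691 ± 19.6 CPM under DMH1, 666 ± 101 under SU5402 and 771 ± 134 under notum-1, against 1039 ± 46.9 in WT (SD, n = 4), and no treated library reached the WT range. The gene hoxd9a had 174, 168, 188 and 193 CPM under DMH1, 216, 238, 175 and 155 under SU5402 and 241, 283, 269 and 359 under notum-1, against 404, 389, 416 and 449.8 in WT. For hoxd9a the log2 fold change was -1.20 ± 0.14 (adjusted p = 1.05e-05) under DMH1, -1.08 ± 0.14 (adjusted p = 2.11e-05) under SU5402 and -0.53 ± 0.14 (adjusted p = 0.00816) under notum-1. Treated libraries all lay below WT, with the DMH1 and SU5402 libraries below those of notum-1. The gene hoxa9b had 117, 117, 129 and 121 CPM under DMH1, 143, 136, 149 and 103 under SU5402 and 111, 131, 105 and 136 under notum-1, against 189, 175, 193 and 206 in WT. For hoxa9b the log2 fold change was -0.66 ± 0.12 (adjusted p = 0.000439) under DMH1, -0.52 ± 0.12 (adjusted p = 0.00222) under SU5402 and -0.66 ± 0.12 (adjusted p = 0.00068) under notum-1. No treated library of hoxa9b reached the WT range. Its neighbour in group 9, hoxc9a, had 31.4, 32.5, 35.4 and 32.1 CPM under DMH1, 25.4, 23.1, 20.5 and 21.8 under SU5402 and 42.7, 41.8, 47.7 and 56.5 under notum-1, against 53.6, 48.9, 55.4 and 46.9 in WT. For hoxc9a the log2 fold change was -0.64 ± 0.11 (adjusted p = 0.000272) under DMH1, -1.18 ± 0.11 (adjusted p = 1.3e-06) under SU5402 and -0.12 ± 0.11 (adjusted p = 0.41) under notum-1, and it was called lower in DMH1 and SU5402 but not in notum-1, which overlapped WT. The copy hoxa9a was lower at -0.53 (adjusted p = 0.0315) under DMH1, -0.64 (adjusted p = 0.0122) under SU5402 and -0.53 (adjusted p = 0.0361) under notum-1. The DMH1 call of hoxa9a was lost without MG1, MG2, DJ2, DMH0, DMH2, DMH3 or DMH4 (log2 fold change -0.55 to -0.49, adjusted p 0.052 to 0.0758), and the notum-1 call without MG1, MG2, DJ2, WNT_MG1, WNT_MG2 or WNT_DJ1 (log2 fold change -0.54 to -0.42, adjusted p 0.0587 to 0.107). In the other direction, hoxb9a was higher in DMH1 at 0.38 (adjusted p = 0.0185), a call lost without DJ1 or DMH3 (log2 fold change 0.33 to 0.35, adjusted p 0.0539 to 0.0666).

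Group 10, whose mouse genes hold back rib formation in the lumbar region, was lower as a sum in every treatment, with 701 ± 21.4 CPM under DMH1, 513 ± 46.1 under SU5402 and 593 ± 57.01 under notum-1, against 979 ± 69.8 in WT (SD, n = 4) and no overlap with WT. The largest change in it was that of hoxd10a, with 109, 115, 128 and 125 CPM under DMH1, 96.7, 112, 127 and 108 under SU5402 and 183, 129.6, 191 and 108 under notum-1, against 331, 342, 328 and 355 in WT. For hoxd10a the log2 fold change was -1.51 ± 0.15 (adjusted p = 3.29e-06) under DMH1, -1.61 ± 0.15 (adjusted p = 1.44e-06) under SU5402 and -1.15 ± 0.15 (adjusted p = 5.73e-05) under notum-1. The highest treated library, WNT_DJ1 of notum-1, stayed below the lowest WT library, DJ1. The gene hoxa10b had 111, 116, 129 and 127 CPM under DMH1, 96.7, 92.9, 107 and 92.2 under SU5402 and 102, 102, 107 and 144 under notum-1, against 189, 161, 163 and 199 in WT. For hoxa10b the log2 fold change was -0.56 ± 0.12 (adjusted p = 0.00154) under DMH1, -0.87 ± 0.12 (adjusted p = 3.51e-05) under SU5402 and -0.65 ± 0.12 (adjusted p = 0.000815) under notum-1, and no treated library reached WT. With the common cell filter it was -0.33 (adjusted p = 0.179) in DMH1. The gene hoxb10a had 426, 396, 394 and 352 CPM under DMH1, 245, 253, 282 and 219 under SU5402 and 279, 256, 256 and 365 under notum-1, against 411, 362, 404 and 463 in WT. For hoxb10a the log2 fold change was -0.06 ± 0.13 (adjusted p = 0.711) under DMH1, -0.71 ± 0.13 (adjusted p = 0.00033) under SU5402 and -0.50 ± 0.13 (adjusted p = 0.00626) under notum-1. It was not called in DMH1, where the libraries overlapped WT. With the common cell filter hoxb10a was -0.58 (adjusted p = 0.0662) in notum-1. The remaining member, hoxc10a, was called only in notum-1, at -0.48 (adjusted p = 0.0467), and that call was lost without MG1, MG2, DJ1, DJ2, WNT_MG2 or WNT_DJ2 (log2 fold change -0.53 to -0.33, adjusted p 0.0517 to 0.135).

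Group 11, which in mouse shapes the sacral vertebrae and the kidney, had 234 ± 40.9 CPM under DMH1, 227 ± 12.4 under SU5402 and 274 ± 46.1 under notum-1, against 469 ± 18.6 in WT (SD, n = 4), with no treated library in the WT range. The gene hoxd11a had 43.95, 45.03, 55.8 and 56.1 CPM under DMH1, 70.1, 74.8, 63.4 and 53.2 under SU5402 and 62.01, 55.3, 70.9 and 55.1 under notum-1, against 141, 146, 141 and 148 in WT. For hoxd11a the log2 fold change was -1.52 ± 0.13 (adjusted p = 5.42e-07) under DMH1, -1.14 ± 0.12 (adjusted p = 4.35e-06) under SU5402 and -1.24 ± 0.12 (adjusted p = 5.59e-06) under notum-1. Its 12 treated libraries all lay below the 4 WT libraries. The gene hoxa11b had 98.9, 97.8, 134 and 132 CPM under DMH1, 109, 113, 124 and 104 under SU5402 and 145, 121, 157 and 158 under notum-1, against 246, 222, 220.1 and 242 in WT. For hoxa11b the log2 fold change was -1.01 ± 0.13 (adjusted p = 1.68e-05) under DMH1, -1.05 ± 0.13 (adjusted p = 9.83e-06) under SU5402 and -0.68 ± 0.12 (adjusted p = 0.000728) under notum-1. Treated libraries again stayed below WT. The gene hoxc11a had 19.6, 20.5, 28.8 and 31.4 CPM under DMH1, 29.6, 31.2, 26.9 and 21.7 under SU5402 and 34.4, 17.98, 37.8 and 15.7 under notum-1, against 54.1, 50.9, 46.3 and 50.9 in WT. For hoxc11a the log2 fold change was -1.01 ± 0.24 (adjusted p = 0.00338) under DMH1, -0.89 ± 0.24 (adjusted p = 0.00743) under SU5402 and -0.93 ± 0.24 (adjusted p = 0.00721) under notum-1, and its treated libraries did not overlap WT. Its copy hoxc11b was called in SU5402, at -1.40 (adjusted p = 0.00101), and not in DMH1, at -0.63 (adjusted p = 0.0816), or notum-1, at -0.53 (adjusted p = 0.144). The copy of hoxa11b, hoxa11a, went the other way in DMH1, with 19.7, 17.5, 27.6 and 31.8 CPM in the DMH1 libraries, against 13.6, 13.4, 11.5 and 10.5 CPM in WT. Its log2 fold change was 0.98 (adjusted p = 0.029) under DMH1, -0.16 (adjusted p = 0.722) under SU5402 and 0.79 (adjusted p = 0.0783) under notum-1. The DMH1 call was lost without DJ1, DJ2, DMH3 or DMH4 (log2 fold change 0.82 to 0.92, adjusted p 0.0695 to 0.0885).

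In group 12, hoxd12a had 103, 109, 154 and 159 CPM under DMH1, 86.3, 84.7, 85.7 and 79.2 under SU5402 and 107, 44.03, 141 and 57.95 under notum-1, against 149, 141, 133 and 160.4 in WT. For hoxd12a the log2 fold change was -0.15 ± 0.26 (adjusted p = 0.669) under DMH1, -0.79 ± 0.27 (adjusted p = 0.0244) under SU5402 and -0.73 ± 0.27 (adjusted p = 0.0396) under notum-1. It was not called in DMH1, where DMH0 and DMH2 were low and DMH3 and DMH4 at the WT level. The SU5402 call was lost without DJ2 or SU4 (log2 fold change -0.77 to -0.75, adjusted p 0.0504 to 0.056), and at -0.83 (adjusted p = 0.0746) without SU1 and SU2. The notum-1 call was lost without MG1, MG2, DJ2, WNT_MG2 or WNT_DJ2 (log2 fold change -0.75 to -0.51, adjusted p 0.0626 to 0.115), and without WNT_MG2 and WNT_DJ2 together it was -0.28 (adjusted p = 0.232). The other members, hoxc12a and hoxc12b, averaged under 1 CPM in every group and were not called. Over all members, 15 of 22 calls under DMH1, 24 of 26 under SU5402 and 15 of 22 under notum-1 were kept without each single library.

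The posterior groups also lost weight within the Hox UMIs. Groups 9 to 12 made up 51.2 ± 0.751% under DMH1, 57.3 ± 1.17% under SU5402 and 51.7 ± 3.83% under notum-1, against 60.9 ± 0.141% in WT (SD over 4 libraries). Groups 1 to 4 made up 20.3% under DMH1, 21.7% under SU5402 and 20.7% under notum-1, against 16.1% in WT, and groups 5 to 8 made up 28.6%, 21.01% and 27.6% in the same order, against 22.98% in WT. No treated library reached the WT range for groups 9 to 12. In notum-1 WNT_MG2 and WNT_DJ2, at 47.9% and 49.1%, lay below WNT_MG1 and WNT_DJ1, at 54.1% and 55.9%. This share is taken within a library's Hox UMIs and does not depend on the scaling between libraries. Without the members with overlapping models it was 66.98% under DMH1, 74.98% under SU5402 and 67.8% under notum-1, against 74.9% in WT, so that the SU5402 mean no longer lay below WT.

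**Figure D4:**
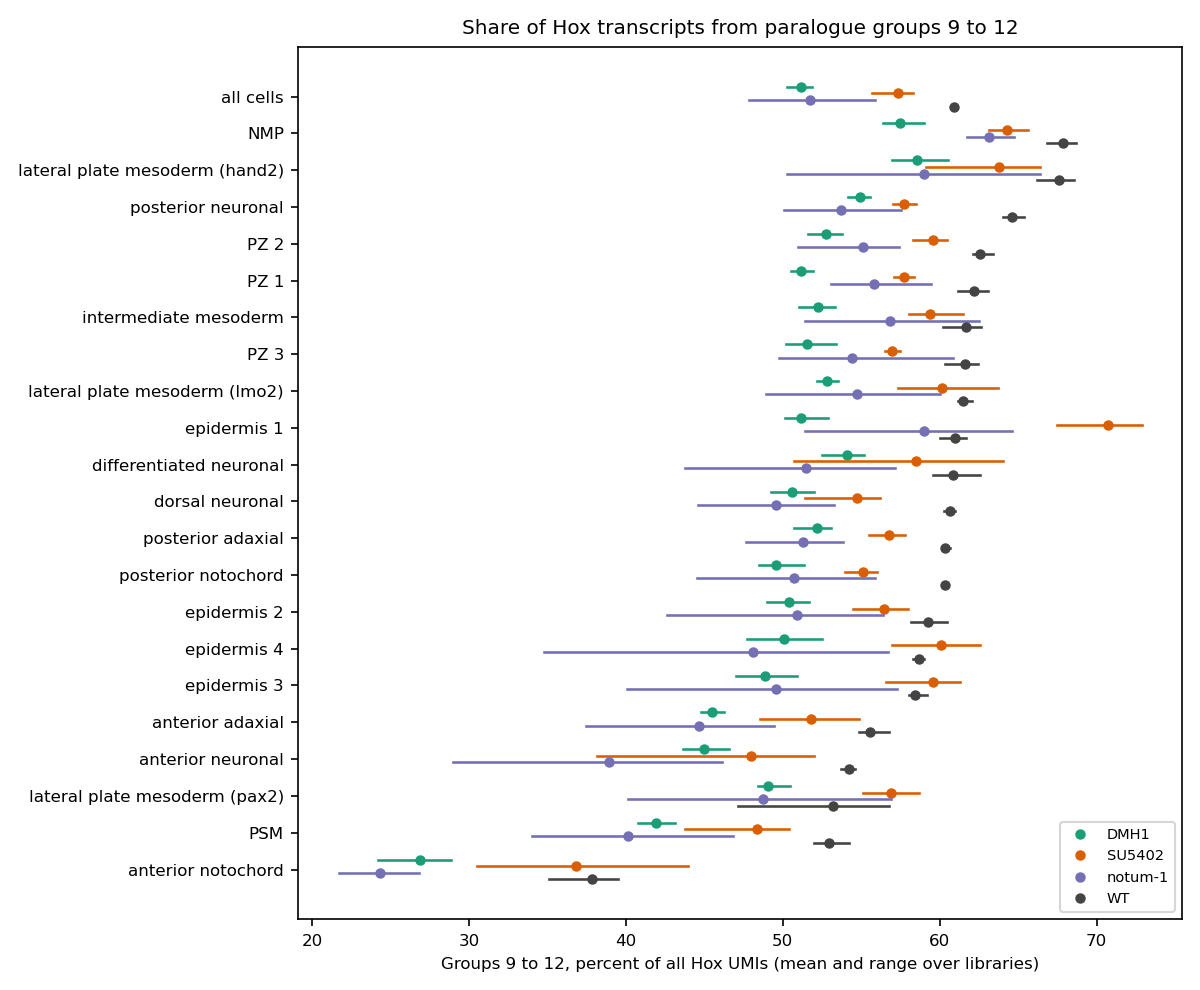
Percent of Hox UMIs that fell on groups 9 to 12, by cell class, for DMH1, SU5402, notum-1 and WT. Points are means over libraries and bars the range over libraries; in NMP the means were 57.5%, 64.3%, 63.2% and 67.9%, and in epidermis 1 SU5402, at 70.7%, lay above WT at 61.0%.

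Class by class, the share of groups 9 to 12 in DMH1 lay below WT without overlap in 20 of 21 classes and overlapped it in 1. In SU5402 it lay below in 11, above in 1 and overlapped in 9, and in notum-1 it lay below in 16 and overlapped in 5. The 21 classes come from the same libraries and are not independent. In NMP the share was 57.5 ± 1.10% under DMH1, 64.3 ± 1.19% under SU5402 and 63.2 ± 1.26% under notum-1, against 67.9 ± 0.800% in WT. In PSM it was 41.9 ± 0.980% under DMH1, 48.4 ± 3.11% under SU5402 and 40.1 ± 6.57% under notum-1, against 52.9 ± 0.975% in WT. In posterior neuronal cells it was 54.9 ± 0.678% under DMH1, 57.7 ± 0.789% under SU5402 and 53.7 ± 3.52% under notum-1, against 64.6 ± 0.637% in WT. DMH1 lay below WT in each of these. In hand2 lateral plate mesoderm, the class with the highest group 9 level, the share was 58.6 ± 1.79% under DMH1, 63.8 ± 3.41% under SU5402 and 59.02 ± 6.98% under notum-1, against 67.6 ± 1.03% in WT. The single class above WT was epidermis 1 in SU5402, with 51.1 ± 1.20% under DMH1, 70.7 ± 2.35% under SU5402 and 59.02 ± 5.89% under notum-1, against 60.96 ± 0.747% in WT. In 3 cases a library with under 30 cells was left out, so that PZ 3 in SU5402 and epidermis 2 and pax2 lateral plate mesoderm in notum-1 rest on 3 libraries.

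Within single cell classes, the loss of many posterior members and the gain of hoxa3a were both present in classes of the posterior axis. UMIs were summed per library over the cells of posterior neuronal, PZ 1, NMP, PSM and epidermis 1, and each class was tested in its own fit. The gene hoxd10a was lower in 5 of 5 classes under DMH1 (log2 fold changes -1.71 to -1.33), 5 of 5 under SU5402 (-1.99 to -1.18) and 5 of 5 under notum-1 (-2.12 to -0.73). The gene hoxd11a was lower in 5 of 5, 4 of 5 and 5 of 5 classes in DMH1, SU5402 and notum-1. The gene hoxa3a was higher in 4 of 5, 4 of 5 and 4 of 5, in DMH1, SU5402 and notum-1. The gene hoxc1a was higher in 4 of 5 in DMH1, and in 0 of 5 in SU5402 and in notum-1. Lower in SU5402 in 5 of 5 classes were also hoxb8a, hoxc8a and hoxb10a. Some posterior members went the other way. Under DMH1 hoxb9a was higher in 3 of 5 classes. Under SU5402, where it was not called over all cells, it was higher in 3 and lower in 1. Of the 4 classes in which hoxa11a was tested, it was higher in 3 under DMH1 and 2 under notum-1. In WT the PSM levels of hoxc11a, hoxd11a, hoxc11b and hoxd12a were at background (25.5%, 32.6%, 15.7% and 13.9% of the all-cell level). All lay below the 36.5% of the summed epidermis markers, but hoxc11a and hoxd11a lay above tp63 (15.7%) and epcam (19.15%) taken singly. Also at background were hoxc1a in NMP and hoxa11a, hoxb6b, hoxb8b and hoxc1a in epidermis 1. Results of these members in those classes rest on WT levels at background.

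**Figure D5:**
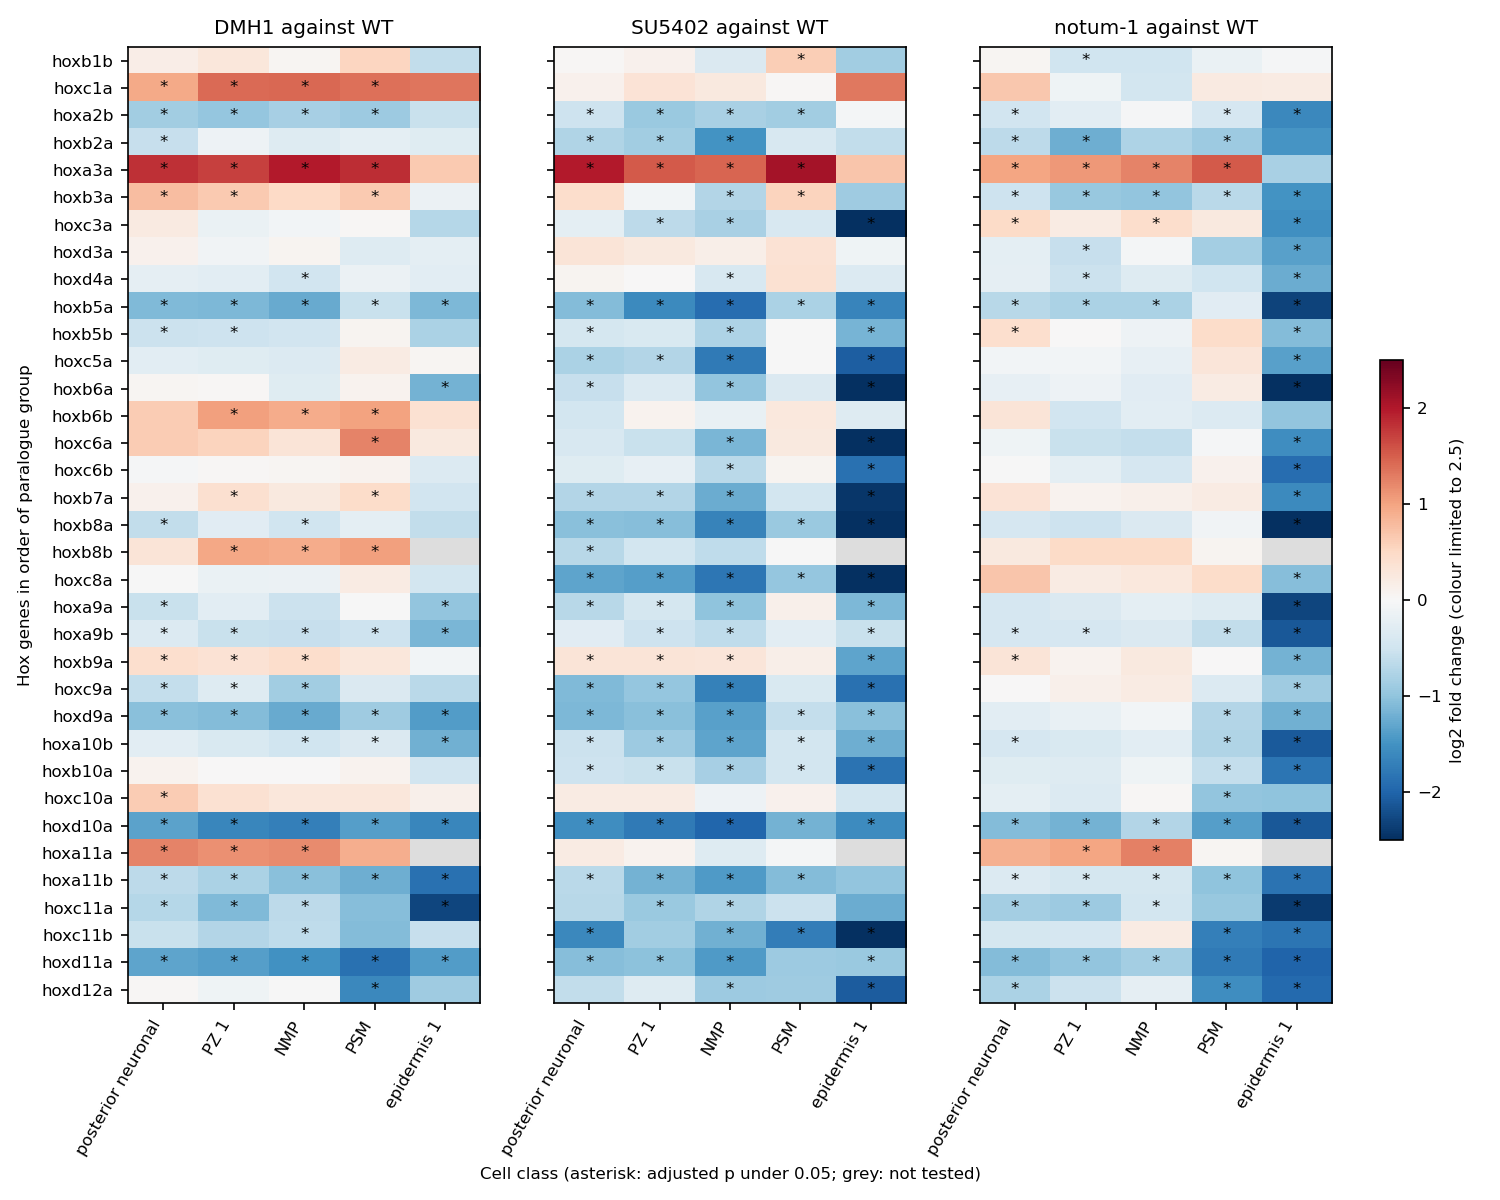
Log2 fold change against WT of the 35 members with at least 2000 UMIs, in 5 cell classes under DMH1, SU5402 and notum-1. Colour is limited to 2.5, an asterisk marks adjusted p under 0.05 and grey a member not tested; hoxd10a is lower throughout, hoxa3a is higher outside epidermis 1, and most members of epidermis 1 are lower.

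Markers of other cell types moved with the groups and stand beside every class result. The 3 epidermis markers tp63, krt4 and epcam, summed and set against their all-cell level, were in posterior neuronal cells at 21.6% under DMH1, 21.9% under SU5402 and 16.97% under notum-1, against 38.95% in WT. In PZ 1 they were at 18.1% under DMH1, 18.5% under SU5402 and 14.3% under notum-1, against 33.7% in WT. In NMP they were at 20.2% under DMH1, 20.95% under SU5402 and 15.6% under notum-1, against 36.3% in WT, and in PSM at 19.99% under DMH1, 20.4% under SU5402 and 16.9% under notum-1, against 36.5% in WT. None of the 3 markers was at 0 in any group. Over libraries, their summed level in posterior neuronal cells was 251 to 394 CPM under DMH1, 50.4 to 1860.0 under SU5402 and 44.02 to 173 under notum-1, against 200.1 to 629 in WT. In PZ 1 it was 214 to 337 CPM under DMH1, 36.5 to 1670.0 under SU5402 and 37.6 to 132 under notum-1, against 154 to 549 in WT, in NMP 236 to 381 CPM under DMH1, 45.1 to 1761 under SU5402 and 40.4 to 166 under notum-1, against 178 to 588 in WT, and in PSM 239 to 405 CPM under DMH1, 47.1 to 1807 under SU5402 and 42.1 to 172 under notum-1, against 174 to 598 in WT. Their part in the class results was not tested.

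Posterior neuronal cells, the class with the highest hoxd10a and hoxd12a levels in WT, had lower hoxd10a and hoxd11a and higher hoxa3a in each treatment. Of the 38 members tested in posterior neuronal cells, 8 were higher and 13 lower in DMH1, where 22.5% of all genes tested were higher and 21.1% lower. In SU5402 2 were higher and 19 lower, beside 22.9% and 19.6% of all genes, and in notum-1 4 were higher and 11 lower, beside 18.6% and 16.3%. In DMH1 the 4 members with the smallest adjusted p were hoxd11a at -1.32 ± 0.12 (adjusted p = 2.18e-07), hoxa3a at 1.83 ± 0.19 (adjusted p = 6.75e-07), hoxd10a at -1.33 ± 0.15 (adjusted p = 2.27e-06) and hoxb5a at -1.10 ± 0.17 (adjusted p = 5.29e-05). In SU5402 they were hoxa3a at 1.98 ± 0.19 (adjusted p = 2.06e-07), hoxd10a at -1.55 ± 0.16 (adjusted p = 4.11e-07), hoxd11a at -1.07 ± 0.12 (adjusted p = 1.55e-06) and hoxc9a at -1.11 ± 0.15 (adjusted p = 7.81e-06). In notum-1 they were hoxd11a at -1.08 ± 0.12 (adjusted p = 5.35e-06), hoxd10a at -1.09 ± 0.15 (adjusted p = 4.8e-05), hoxa3a at 0.98 ± 0.19 (adjusted p = 0.000713) and hoxb5a at -0.70 ± 0.17 (adjusted p = 0.00441). The gene hoxd10a had 233, 229.7, 229.9 and 228 CPM under DMH1, 149, 196, 225 and 219 under SU5402 and 314, 224, 340.0 and 206 under notum-1, against 538, 608, 560.0 and 608 in WT in this class, so that no treated library reached WT. Without scaling the counts were 9 higher and 8 lower under DMH1, 5 and 12 under SU5402, and 1 and 22 under notum-1. Of the 10861 genes tested in this class, 2916 were then higher and 1810 lower under DMH1, 3401 and 1449 under SU5402, and 685 and 4542 under notum-1. The DMH1 total was 13 without DJ2, and the notum-1 total was 8 without MG1 and 9 without DJ2.

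In PZ 1 hoxd10a, hoxd11a and hoxa3a were again among the leading members in each treatment. Of the 37 members tested in PZ 1, 10 were higher and 10 lower in DMH1, where 23.2% of all genes tested were higher and 21.9% lower. In SU5402 2 were higher and 18 lower, beside 24.8% and 20.1% of all genes, and in notum-1 3 were higher and 11 lower, beside 19.2% and 16.9%. In DMH1 the leading members were hoxd11a at -1.38 ± 0.12 (adjusted p = 1.45e-07), hoxd10a at -1.62 ± 0.15 (adjusted p = 1.71e-07), hoxa3a at 1.71 ± 0.16 (adjusted p = 2.53e-07) and hoxd9a at -1.08 ± 0.15 (adjusted p = 1.96e-05). In SU5402 they were hoxd10a at -1.78 ± 0.15 (adjusted p = 5.48e-08), hoxa3a at 1.54 ± 0.17 (adjusted p = 7.78e-07), hoxa11b at -1.17 ± 0.14 (adjusted p = 2.27e-06) and hoxd11a at -1.02 ± 0.12 (adjusted p = 2.97e-06). In notum-1 they were hoxd10a at -1.19 ± 0.15 (adjusted p = 1.18e-05), hoxd11a at -0.99 ± 0.12 (adjusted p = 1.21e-05), hoxa3a at 1.09 ± 0.17 (adjusted p = 8.87e-05) and hoxb3a at -0.95 ± 0.20 (adjusted p = 0.00107). Without scaling the notum-1 counts were 1 higher and 28 lower, where 670 of all 10569 genes tested were higher and 4901 lower. With scaling, the notum-1 total was 8 without DJ2. The DMH1 counts lie near those of all genes. With all sums thinned to the smallest PZ 1 total, the calls were 13 in DMH1 and 9 in notum-1.

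NMP had the most members lower in SU5402. Of the 35 members tested in NMP, 6 were higher and 13 lower in DMH1, where 21.5% of all genes tested were higher and 20.7% lower. In SU5402 2 were higher and 26 lower, beside 24.1% and 20.2% of all genes, and in notum-1 3 were higher and 6 lower, beside 18.9% and 15.8%. The SU5402 median was -0.83 on the log2 scale, and 12 of 15 members of groups 9 to 12 were lower and 1 higher there. The gene hoxd10a had 112, 124, 129 and 138 CPM under DMH1, 93.9, 103, 114 and 104 under SU5402 and 237, 257, 290.0 and 212 under notum-1, against 341, 425, 434 and 448 in WT. For hoxd10a in NMP the log2 fold change was -1.71 ± 0.13 (adjusted p = 1.69e-08) under DMH1, -1.99 ± 0.13 (adjusted p = 3.4e-09) under SU5402 and -0.73 ± 0.13 (adjusted p = 0.000246) under notum-1. No treated library of hoxd10a in NMP reached the WT range. The gene hoxd11a had 54.5, 55.9, 61.8 and 70.8 CPM under DMH1, 63.6, 72.2, 67.97 and 54.1 under SU5402 and 82.5, 103, 94.7 and 104 under notum-1, against 153, 184, 168 and 186 in WT. For hoxd11a in NMP the log2 fold change was -1.51 ± 0.13 (adjusted p = 7.57e-08) under DMH1, -1.42 ± 0.13 (adjusted p = 1.03e-07) under SU5402 and -0.85 ± 0.13 (adjusted p = 7.26e-05) under notum-1. Further leading members were hoxa3a at 1.98 ± 0.18 (adjusted p = 1.22e-07) and hoxd9a at -1.25 ± 0.18 (adjusted p = 1.92e-05) under DMH1, hoxc9a at -1.69 ± 0.17 (adjusted p = 2.5e-07) and hoxa11b at -1.43 ± 0.16 (adjusted p = 8.98e-07) under SU5402, and hoxa3a at 1.24 ± 0.18 (adjusted p = 5.42e-05) and hoxa11a at 1.26 ± 0.25 (adjusted p = 0.001) under notum-1. The notum-1 counts lie near those of all genes. Without scaling the counts were 7 higher and 9 lower in DMH1 and 2 and 23 in notum-1. Of all 10020 genes tested there, 2558 were then higher and 1671 lower in DMH1, and 644 and 4221 in notum-1.

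In PSM, anterior members led the lists in DMH1 and SU5402, and posterior members fell in each treatment. Of the 15 members of groups 9 to 12 tested there, 7 were lower and 0 higher in DMH1, and 6 lower and 0 higher in SU5402. The DMH1 calls include hoxd11a, which is not the only called member whose WT level there is at background. Group 12, in PSM nearly all hoxd12a at background, had 6.17 ± 1.31 CPM under DMH1 and 10.97 ± 4.56 under SU5402. In WT it had 18.9 ± 2.69 CPM (SD, n = 4). The counts of both treatments may thus rest partly on levels at background. Of the 35 members tested in PSM, 7 were higher and 9 lower in DMH1, where 22.3% of all genes tested were higher and 22.0% lower. In SU5402 3 were higher and 10 lower, beside 21.5% and 19.4% of all genes, and in notum-1 1 was higher and 13 lower, beside 19.5% and 16.2%. In DMH1 hoxa3a was at 1.84 ± 0.26 (adjusted p = 1.78e-05), hoxc1a at 1.38 ± 0.21 (adjusted p = 2.87e-05), hoxa2b at -0.91 ± 0.14 (adjusted p = 2.95e-05) and hoxd9a at -0.90 ± 0.16 (adjusted p = 0.000158). In SU5402 hoxa3a was at 2.07 ± 0.27 (adjusted p = 8.77e-06), hoxa2b at -0.86 ± 0.15 (adjusted p = 0.000102), hoxb3a at 0.55 ± 0.14 (adjusted p = 0.00372) and hoxa11b at -1.08 ± 0.28 (adjusted p = 0.00541). In notum-1 hoxa10b was at -0.75 ± 0.13 (adjusted p = 0.000243), hoxa3a at 1.54 ± 0.27 (adjusted p = 0.000274), hoxb3a at -0.67 ± 0.14 (adjusted p = 0.0012) and hoxd9a at -0.74 ± 0.16 (adjusted p = 0.00159), and 10 of 15 members of groups 9 to 12 were lower and none higher, 3 of them (hoxc11b, hoxd11a and hoxd12a) from WT levels at background. The gene hoxa3a had 22.2, 28.1, 34.3 and 31.4 CPM under DMH1, 41.8, 34.2, 31.6 and 32.3 under SU5402 and 32.9, 17.1, 31.5 and 11.2 under notum-1, against 7.37, 8.05, 6.39 and 10.3 in WT. Treated libraries of hoxa3a all lay above WT. The DMH1 counts in PSM lie near those of all genes. Without scaling the SU5402 counts were 3 higher and 6 lower, where 2446 of all 9647 genes tested were higher and 1364 lower.

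Epidermis 1 stood apart in that no member was called higher. Of the 33 members tested in epidermis 1, 0 were higher and 10 lower in DMH1, where 16.4% of all genes tested were higher and 15.7% lower. In SU5402 0 were higher and 21 lower, beside 18.0% and 17.3% of all genes, and in notum-1 0 were higher and 27 lower, beside 15.9% and 14.0%. The medians of the members were -0.57 under DMH1, -1.22 under SU5402 and -1.56 under notum-1. In DMH1 hoxd10a was at -1.62 ± 0.23 (adjusted p = 3.7e-05), hoxd9a at -1.39 ± 0.20 (adjusted p = 3.86e-05), hoxa9b at -1.14 ± 0.20 (adjusted p = 0.000344) and hoxb6a at -1.17 ± 0.24 (adjusted p = 0.00116). In SU5402 hoxc8a was at -3.57 ± 0.31 (adjusted p = 3.11e-07), hoxb6a at -2.60 ± 0.28 (adjusted p = 1.88e-06), hoxc3a at -2.66 ± 0.30 (adjusted p = 5.91e-06) and hoxb8a at -3.29 ± 0.40 (adjusted p = 6.74e-06). In notum-1 hoxa9b was at -2.12 ± 0.22 (adjusted p = 2.75e-06), hoxb6a at -2.55 ± 0.29 (adjusted p = 6e-06), hoxd10a at -2.12 ± 0.24 (adjusted p = 6.39e-06) and hoxb5a at -2.31 ± 0.29 (adjusted p = 1.6e-05). The gene hoxb8a had 15.2, 18.1, 24.2 and 30.03 CPM under DMH1, 4.24, 7.39, 1.73 and 2.21 under SU5402 and 7.73, 13.2, 4.14 and 3.88 under notum-1, against 45.5, 39.8, 26.2 and 26.5 in WT, and its SU5402 and notum-1 libraries all lay below those of DMH1 and WT. Mesoderm markers in this class, msgn1, tbx16 and tbx6, moved with these results: relative to its all-cell level their sum was at 9.37% under DMH1, 20.7% under SU5402 and 9.03% under notum-1, against 27.1% in WT. The Hox members together were at 49.5% under DMH1, 45.6% under SU5402 and 35.3% under notum-1, against 82.8% in WT. The WT libraries ran from 65.4% to 100.2%. They fell into pairs in this class, with MG1 and MG2 above DJ1 and DJ2. For the sum of group 10 the pairs had 707 and 645 CPM against 427 and 498 CPM. The summed marker level over libraries was 151 to 297 CPM under DMH1, 121 to 693 under SU5402 and 19.5 to 152 under notum-1, against 557 to 664 in WT, with none of the 3 markers at 0, and its part in the falls was not tested.

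Whether a treatment acted differently on a member in posterior neuronal cells and in PSM was tested as an interaction, with each library as a block. It was called for 5 of 38 members under DMH1, 5 under SU5402 and 3 under notum-1, where 6.44%, 2.44% and 8.15% of the 11105 genes tested were called in either direction. The notum-1 count lies at the background. The differences come from 1 fit over both classes, and the fold changes set beside them from the fit of each class. The clearest concerned hoxa9a and hoxb7a. In SU5402 hoxa9a had a log2 fold change of -0.69 ± 0.20 in posterior neuronal cells and 0.13 ± 0.17 in PSM, a difference of -0.91 (adjusted p = 1.03e-09). In DMH1 it had -0.55 ± 0.20 in posterior neuronal cells and -0.01 ± 0.17 in PSM, a difference of -0.58 (adjusted p = 2.87e-06). The change in posterior neuronal cells lay below that in PSM in both. For hoxb7a the values were -0.74 ± 0.17 in posterior neuronal cells and -0.45 ± 0.19 in PSM in SU5402, a difference of -0.32 (adjusted p = 0.00229), and 0.10 ± 0.17 in posterior neuronal cells and 0.46 ± 0.19 in PSM in DMH1, a difference of -0.40 (adjusted p = 6.53e-06). For hoxb1b in SU5402 they were 0.03 ± 0.21 in posterior neuronal cells and 0.61 ± 0.23 in PSM, a difference of -0.69 (adjusted p = 0.00217). These 5 differences kept their calls under every setting run.

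The other interaction calls were less stable. In DMH1 hoxd12a differed by 1.63 (adjusted p = 0.012), with its PSM level in WT at background, and that call was lost without MG1 or DMH4 (log2 difference 1.52 to 1.53, adjusted p 0.0501 to 0.0559). The call of hoxb5b, at -0.67 (adjusted p = 0.0277), was lost without MG1, MG2, DJ1, DJ2, DMH3 or DMH4 (log2 difference -0.71 to -0.61, adjusted p 0.0561 to 0.113), and that of hoxb1b, at -0.40 (adjusted p = 0.0417), without MG1, MG2, DJ1, DMH0, DMH3 or DMH4 (log2 difference -0.42 to -0.34, adjusted p 0.0725 to 0.163). In SU5402 hoxc9a differed by -0.81 (adjusted p = 0.0422), lost without MG1, DJ1, DJ2 or SU3 (log2 difference -0.80 to -0.45, adjusted p 0.0999 to 0.27), and hoxc6b by -0.44 (adjusted p = 0.0272), lost without MG2, DJ1, DJ2 or SU4 (log2 difference -0.45 to -0.41, adjusted p 0.0598 to 0.133). In notum-1 hoxb9a differed by 0.28 (adjusted p = 0.0285), lost without MG1 or DJ1 (log2 difference 0.26 to 0.27, adjusted p 0.0887 to 0.0894). There hoxa10b differed by 0.28 (adjusted p = 0.0305), lost without MG1, MG2, DJ2, WNT_MG2 or WNT_DJ2 (log2 difference 0.25 to 0.28, adjusted p 0.0617 to 0.0853), and hoxc11b, whose PSM level in WT is also at background, by 1.37 (adjusted p = 0.0472), lost without MG1, MG2, WNT_MG2, WNT_DJ1 or WNT_DJ2 (log2 difference 0.96 to 1.40, adjusted p 0.0674 to 0.331). The count of interaction calls was 2 without MG1 or DMH4 and 3 without DJ1 or DMH3 under DMH1, 3 without DJ1 or DJ2 under SU5402, and 1 without MG1, MG2 or WNT_MG2 under notum-1.

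Of the genes known to act with or on Hox genes, the posterior activator cdx4 fell where FGF or BMP signalling was inhibited. It had 1231, 1184, 1189 and 1252 CPM under DMH1, 696, 853, 652 and 743 under SU5402 and 1477, 1940.0, 1445 and 2790.0 under notum-1, against 2006, 1920.0, 1902 and 2157 in WT. For cdx4 the log2 fold change was -0.72 ± 0.17 (adjusted p = 0.00332) under DMH1, -1.44 ± 0.17 (adjusted p = 1.05e-05) under SU5402 and -0.06 ± 0.17 (adjusted p = 0.798) under notum-1. The DMH1 and SU5402 libraries lay below WT, and notum-1 overlapped it. Over 24 such genes tested (group 13 Hox genes, evx, cdx, Pbx and Meis cofactors, genes of retinoic acid and gdf11), 5 were higher and 5 lower under DMH1, 6 and 5 under SU5402 and 5 and 4 under notum-1, with medians of 0.13, -0.03 and -0.01. These shares lie near those of all genes, which were 22.1% higher and 20.3% lower under DMH1, 23.0% and 19.6% under SU5402, and 20.9% and 17.1% under notum-1. The DMH1 total of 10 was 5 without MG2 or DMH4 and 6 without MG1, DJ2, DMH0 or DMH3, and the notum-1 total of 9 was 4 without DJ2. The Hox cofactor pbx4 had 97.8, 122, 102 and 93.9 CPM under DMH1, 153, 119.6, 136 and 123 under SU5402 and 76.9, 61.9, 68.8 and 54.2 under notum-1, against 53.8, 59.3, 59.3 and 59.2 in WT. For pbx4 the log2 fold change was 0.84 ± 0.12 (adjusted p = 6.25e-05) under DMH1, 1.20 ± 0.12 (adjusted p = 2.33e-06) under SU5402 and 0.18 ± 0.12 (adjusted p = 0.255) under notum-1. It was higher in DMH1 and SU5402, without overlap with WT. Of the group 13 genes, which lie at the 5′ ends of the clusters, 5 were tested, and those called, named here after their values were seen, were hoxa13b, lower at -0.55 (adjusted p = 0.0463) in DMH1 and -0.73 (adjusted p = 0.0116) in SU5402, and hoxd13a, lower at -0.81 (adjusted p = 0.0126) in SU5402.

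Genes of the retinoic acid pathway moved in both directions. In DMH1 cyp26a1, which breaks retinoic acid down, was lower at -0.80 (adjusted p = 0.00842), and the receptors rarab, at 0.54 (adjusted p = 0.00111), and rargb, at 1.42 (adjusted p = 0.0248), were higher. In SU5402 the receptor raraa was lower at -0.70 (adjusted p = 3e-05) and rarab higher at 0.44 (adjusted p = 0.00453). In notum-1 aldh1a2, which makes retinoic acid, was higher at 0.67 (adjusted p = 0.0202), as were the receptors rarga, at 1.06 (adjusted p = 0.00465), and rargb, at 1.55 (adjusted p = 0.019). Called too, and named after their values were seen, were aldh1a2, higher at 0.66 (adjusted p = 0.019) in SU5402, rarga, higher at 0.68 (adjusted p = 0.0409) in DMH1, raraa, lower at -0.26 (adjusted p = 0.0382) in notum-1, and the cofactor gene pbx3b, higher at 0.62 (adjusted p = 0.0497) in DMH1. So were, in the same edgeR fit, meis1a, lower at -0.53 (adjusted p = 0.0383) in DMH1, and meis1b, lower at -0.41 (adjusted p = 0.0124) in SU5402. Higher were meis3, at 1.52 (adjusted p = 0.0225) in SU5402 and 1.43 (adjusted p = 0.0345) in notum-1, and pbx1a, at 1.02 (adjusted p = 0.0323) in notum-1. Among the Pbx genes, pbx2 was lower at -0.48 (adjusted p = 0.0311) under DMH1 and -0.92 (adjusted p = 0.000844) in notum-1, and pbx3b was higher at 1.28 (adjusted p = 0.000603) under SU5402 and lower at -1.03 (adjusted p = 0.00616) under notum-1. The gene cdx1a was higher in SU5402 at 0.64 (adjusted p = 0.0104), and evx2, next to the hoxda cluster, was lower in notum-1 at -1.58 (adjusted p = 0.0181), from levels under 1 CPM in every library. Among these called genes, libraries overlapped WT for aldh1a2, raraa and meis3 in notum-1, cdx1a in SU5402 and hoxa13b in DMH1.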

How the data were processed

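The authors deposited a matrix of raw UMI counts (21301 genes by 130661 cells, 10x Genomics 3′ protocol) with a table of each cell's library, cell class, treatment, UMI count and percent of mitochondrial UMIs. Per the submitters' processing notes, Cell Ranger and the GRCz11 build were used, without a version, and the strand setting, annotation and cell limits are not stated there. The mitochondrial percent was computed by the authors and used here only for a common cell filter. Of the 16 library names, 12 gave a group but not a single sample, and names that start with WNT were taken as notum-1.

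No doublet caller was run, and whether the authors removed doublets is not given in the sources used here. UMIs were summed per library, over all cells or by class, with classes of at least 30 cells in a library. Genes were kept by filterByExpr, scaled by TMM and tested by the robust quasi-likelihood F test of edgeR 4.0.16 (R 4.3.3) in 1 fit over 16 libraries with 12 residual degrees of freedom and Benjamini-Hochberg adjustment over all genes tested. Treatment levels are TMM-scaled CPM, and WT class levels plain CPM. DESeq2 1.42.0, no scaling, no filter on low counts, only the 8 libraries compared, thinning, a replicate block and leaving out each library were alternatives. The test was checked on simulated counts with independent libraries and the same dispersion for every gene. Such counts hold no pairs of libraries, so the check does not cover those named below. Replicates are separate pools per the series' design, so that p-values measure the spread between pools. The test takes the libraries of a group as independent, although in DMH1 and notum-1 they fell into pairs for some members. The WT libraries did so in epidermis 1.

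The members and lists were chosen with earlier results of these data known. Library values are given for called members averaging at least 5 CPM, at most 12 per comparison by adjusted p, and 4 members are named per class and treatment. The library values of hoxc8a, hoxa11a, hoxd12a, cdx4 and pbx4 and those within classes were added after their values were seen. Model overlaps were read from RefSeq, on which all 42 members were found by symbol. No sequence was used here.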

Additional observations from a re-analysis of the deposited data

Results flagged for a closer look

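Among 39 members with at least 200 UMIs, 156 groups of 4 libraries were searched for a library far from the other 3, with a gap to the nearest above the Dixon 95% critical share of the range. The search found 8, where chance gives about 1 in 20, so that the number found is near that given by chance. In SU5402, hoxc3a was low in SU4 at 210.3 CPM, hoxd4a was high in SU3 at 34.9 CPM, and hoxc10a was high in SU3 at 61.6 CPM. In DMH1, hoxb6b was high in DMH3 at 40.1 CPM, and in notum-1 hoxa10b was high in WNT_DJ2 at 144 CPM. In WT, hoxb2a was low in DJ1 at 10.2 CPM, and DJ2 was high for hoxb6a at 53.0 CPM and for hoxb7a at 612 CPM.

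A treatment's effect differed between posterior neuronal cells and PSM, by the interaction test, for 13 pairs of member and treatment. The log2 difference, posterior neuronal minus PSM, in DMH1 was -0.40 for hoxb7a, 1.63 for hoxd12a, -0.67 for hoxb5b, -0.40 for hoxb1b and -0.58 for hoxa9a. In SU5402 it was -0.32 for hoxb7a, -0.69 for hoxb1b, -0.91 for hoxa9a, -0.81 for hoxc9a and -0.44 for hoxc6b. In notum-1 it was 0.28 for hoxb9a, 0.28 for hoxa10b and 1.37 for hoxc11b.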

How the results depend on the processing

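DESeq2 gave the same counts as edgeR over all cells, 6 higher and 16 lower under DMH1, 1 and 25 under SU5402, and 3 and 19 under notum-1. Under every alternative run, 12 of 22 member calls held under DMH1, 18 of 26 under SU5402 and 10 of 22 under notum-1. The class results of the members named by class held in 60 of 60 cases. Those were picked as the 4 smallest adjusted p per class and treatment, and fewer alternatives were run by class. Their count therefore cannot be set against those over all cells. Alternatives with overlapping gene models, with SU1 and SU2, or with WNT_MG2 and WNT_DJ2 left out were chosen after seeing the data. Without scaling, members higher were 11 under DMH1, 2 under SU5402 and 1 under notum-1, the notum-1 calls by class were 23 in posterior neuronal cells, 29 in PZ 1, 25 in NMP and 23 in PSM, and the interaction calls were 3 in SU5402 and 6 in notum-1, which also had 6 with no filter on low counts. Many genes were called lower in notum-1 without scaling. They were 4542 of 10861 in posterior neuronal cells, 4901 of 10569 in PZ 1, 4221 of 10020 in NMP and 4565 of 9647 in PSM. In notum-1 hoxb9a and hoxb7a, not called with scaling, turned to -0.37 and -0.39 without it. With only the 8 libraries compared, 12 members were higher in DMH1. Without the overlapping models 14 members were called in DMH1 and 17 in SU5402, of 23 tested, and the share of groups 9 to 12 was 66.98% under DMH1, 74.98% under SU5402 and 67.8% under notum-1, against 74.9% in WT. With the common cell filter, which leaves 44 to 4961 cells per library and was not run by class, 12 members were called in notum-1, 1 higher and 11 lower, and the DMH1 share was 49.6%. Thinned to the smallest total, PZ 1 had 13 calls in DMH1 and 9 in notum-1. Without SU1 and SU2, 2 members were higher in SU5402. Without WNT_MG2 and WNT_DJ2, hoxb6b and hoxb1b in notum-1 turned to -0.87 and -0.63, both lower. The causes were not tested. Leaving out each library in turn gave 3 to 7 members higher under DMH1 and 1 to 2 under SU5402, 13 to 17 calls in posterior neuronal cells in DMH1, 8 to 14 there and 8 to 16 in PZ 1 under notum-1, 2 to 5 interaction calls under DMH1, 3 to 7 under SU5402 and 1 to 4 under notum-1, and 5 to 8 calls among the regulators and cofactors in DMH1 and 4 to 9 in notum-1.

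With a replicate block for notum-1 and WT libraries that share an ending (MG1, MG2, DJ1, DJ2), 23 members were called, 3 higher and 20 lower, against 22 without it, and hoxc11b was gained at -0.71 (adjusted p = 0.0292, edgeR). Deviations of libraries with the same ending correlated at -0.07, 0.21, 0.24 and 0.03, so the endings were not taken to pair them, and 2 of 4 notum-1 libraries correlated best with their own ending. No paired analysis was possible because the WT libraries cannot be tied to the replicate numbers in the labels, and the endings 1 and 2 each occur on a pair of WT names, so that the numbers of DMH1 and SU5402 libraries match no single WT library. SU1, with 12398958 UMIs, limits what low members can show in SU5402.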
